A study of Mus musculus with 2 samples.

Results

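Conventional CD4 T cells were the CD3-bearing leukocytes of dermatitis skin that held Cd4 RNA and no Cd8, Foxp3 or dermal gamma-delta T cell RNA. They numbered 347 of 26553 filtered barcodes, 164 of 14619 in the IL31RAKO library and 183 of 11934 in the WT library. A barcode was kept as a cell at 500 or more UMIs (molecular tags that count captured RNA molecules), 250 or more genes and under 10% of UMIs from mitochondrial genes. A member then held at least 1 UMI of Cd4 and at least 2 of Cd3d, Cd3e and Cd3g together, and none of Cd8a, Cd8b1, Foxp3, Cd163l1, Blk or 5830411N06Rik. It also held at most 1 UMI of Ifng and Cxcr3 together, at most 1 of Il13 and at most 5 of Lyz2. The cells were thus selected on measured UMIs, so the levels of the genes just named are a description and support nothing.

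Droplet single-cell RNA sequencing was run on live CD45+ cells, that is, leukocytes, sorted from dorsal neck skin. IL31RAKO mice lack the alpha chain of the interleukin-31 receptor, and WT mice were C57Bl/6. All mice of both groups had their shaved back treated 2 times a week for 3 weeks with Biostir, an ointment of the house dust mite Dermatophagoides farinae, after sodium dodecyl sulphate at 2% had been applied 2 hours earlier. Tissue of 4 mice was pooled per group and made into 1 library, so nothing separates the genotype from the pool, the sort or the library, and no test between the groups was possible. The labels gave no age or sex, and untreated skin was not analysed here. Ratios below are IL31RAKO over WT, taken from UMIs summed over the cells of a library and scaled for the total UMIs of those cells (CPM), with exact 95% intervals in brackets. Such intervals, like those of shares, reflect only the error of counting and leave out how cells and mice vary.

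Conventional CD4 T cells recognise peptides on MHC class II molecules through the T cell receptor and direct other cells through secreted cytokines and through surface ligands such as CD40 ligand. Type 17 helpers make interleukin-17A, interleukin-17F and interleukin-22, which act on epidermis and neutrophils, while type 2 helpers make interleukin-4, interleukin-5 and interleukin-13 and are prominent in atopic dermatitis. Interleukin-31, the ligand of the deleted receptor, is itself a product of type 2 helpers and causes itch, and its receptor pairs the alpha chain (Il31ra) with the oncostatin M receptor (Osmr).

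The members held a median of 2470.5 UMIs (range 583 to 10288) in the IL31RAKO library and 2655 UMIs (600 to 11176) in the WT library. Their summed depth was 444419 UMIs in IL31RAKO and 555939 in WT, of library totals of 71333292 and 57000499. Between libraries, 247 barcode sequences were shared over all filtered cells and 0 among the members.

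Among all filtered cells, the members made up 1.12% (exact Clopper-Pearson 95% interval 0.957 to 1.31) in IL31RAKO and 1.53% (1.32 to 1.77) in WT, a ratio of 0.732 [0.589, 0.908]. Among barcodes with 2 or more CD3 UMIs, 7022 in IL31RAKO and 7598 in WT, the shares were 2.34% and 2.41%, a ratio of 0.970 [0.781, 1.204]. The ratio thus differed with the denominator, and which cells changed in number was not tested. Cells with Lyz2 and C1q RNA, a macrophage pattern, made up 10.0% of IL31RAKO and 4.52% of WT cells. The step on Lyz2 removed 57 barcodes in IL31RAKO and 22 in WT. By comparison, CD4 cells with Foxp3 RNA, the transcription factor of regulatory T cells, numbered 91 in IL31RAKO and 45 in WT, or 1.30% and 0.592% of CD3 barcodes.

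The thresholds cut through sparse counts. Cd4 stood at 1 UMI, its lowest allowed value, in 131 IL31RAKO members (79.9%) and 141 WT members (77.0%), and 1437 IL31RAKO and 1823 WT cells that met every other condition had no Cd4 UMI. Just inside the other limits, 35 IL31RAKO and 38 WT members held 1 UMI of Ifng and Cxcr3, and 4 members in each library held 5 of Lyz2. Just outside them, 50 IL31RAKO and 30 WT cells were left out for 1 UMI of Foxp3, 30 and 33 for 1 UMI of Cd8, and 5 and 2 for 6 UMIs of Lyz2.

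A Cd4 UMI was found in 10.2% of the IL31RAKO and 9.12% of the WT cells that met every other condition (164 of 1601 and 183 of 2006, median depths 2136 and 2294.5 UMIs). In cells that should lack Cd4, the CD3 cells with 2 or more UMIs of Cd8, it was found in 3.85% (78 of 2024, median depth 3734.5 UMIs) in IL31RAKO and 2.28% (41 of 1798, 3258 UMIs) in WT. In Lyz2 and C1q cells it was found in 2.59% (38 of 1469, median depth 3868 UMIs) in IL31RAKO and 1.48% (8 of 539, 2887 UMIs) in WT. Free RNA, read from barcodes of 10 to 50 UMIs, held Cd4 at 15.8 CPM in IL31RAKO and 12.7 CPM in WT. How many members hold a Cd4 UMI that came from another cell was not tested.

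Of the label's markers, Cd4 itself (6:124864692-124888221 in mm10, minus strand) was part of the rule, and the others were not. Cd5, a brake on antigen receptor signalling, was seen in 78 IL31RAKO and 69 WT members, at 277 and 200 CPM. Cd6, a related adhesion receptor, was seen in 64 and 71 members at 236 and 216 CPM. Cd40lg was seen in 32 IL31RAKO and 73 WT members, at 122 and 241 CPM, against 102 and 131 CPM in CD8 T cells. Summed, the conventional CD4 markers stood at 1109 CPM in IL31RAKO and 1086 in WT members, against 428 and 438 in CD8 T cells and 147 and 127 in free RNA. Cd4, required of members and absent from the CD8 set, is part of that sum, so its height is fixed in part by the rule. Of the markers outside the rule, Cd40lg was seen in 19.5% of IL31RAKO and 39.9% of WT members, against 23.6% and 27.7% of CD8 T cells, and Cd6 in 39.0% and 38.8%, against 43.5% and 40.0%. Cd5 was seen in 47.6% and 37.7% of members, against 31.0% and 31.2% of CD8 T cells. These markers therefore did not set the members apart from CD8 T cells in a uniform way.

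Markers of other cells were measured beside these. Of 6 regulatory T markers, Foxp3 (part of the rule) and Gpr83 were at 0, yet the list summed to 992 CPM in IL31RAKO and 741 in WT members, against 3329 and 2128 in the cells with Foxp3 RNA. Ikzf2 (Helios) was seen in 56 IL31RAKO members (34.1%) and 50 WT members (27.3%), and Ctla4 stood at 470 and 365 CPM. Natural killer markers summed to 511 CPM in IL31RAKO and 538 in WT, with Ncr1, Klra8 and Eomes at 0, and a UMI of Klrk1, Klrd1 or Cd7 was found in 82 (50%) and 107 (58.5%) members. In Lyz2 and C1q cells, which should lack these genes, Ikzf2 was seen in 3.54% of IL31RAKO and 2.60% of WT cells, Klrk1 in 11.1% and 7.42%, Klrd1 in 9.26% and 8.16% and Cd7 in 13.1% and 12.8%. The members' shares were 24.4% and 30.6% for Klrk1, 18.9% and 14.8% for Klrd1 and 34.1% and 41.5% for Cd7. Free RNA held the natural killer list at 2000 CPM in IL31RAKO and 2133 in WT, and Klrd1 at 168 and 127 CPM against 164 and 89.9 CPM in members. The part of free RNA in these UMIs was not tested. As used here, the name conventional says only that the UMI limits were met, with no Foxp3 UMI found. It does not set aside all cells with regulatory T or natural killer markers.

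Myeloid and stromal RNA was also present. Dendritic cell markers summed to 6361 CPM in IL31RAKO and 9726 in WT members, macrophage markers to 1323 and 1175, neutrophil markers to 230 and 82.7, and fibroblast markers to 92.3 and 854. In free RNA the dendritic list stood at 39686 CPM in IL31RAKO and 43054 in WT, and the macrophage list at 9227 and 11321. A single WT member held 417 of the 475 fibroblast UMIs, and a single WT member held 926 dendritic UMIs. A doublet caller marked 6 IL31RAKO members (3.66%) and 13 WT members (7.10%), against 11.7% of all filtered IL31RAKO cells and 9.54% of WT cells. The share called over all cells was set in advance by the number of cells. Cd74 (0.651) and H2-Eb1 (0.578), genes of MHC class II presentation, had lower ratios. Both are themselves members of the dendritic list, so they are no separate sign of it. The part of dendritic cell RNA in these ratios was not tested.

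**Figure D1:**
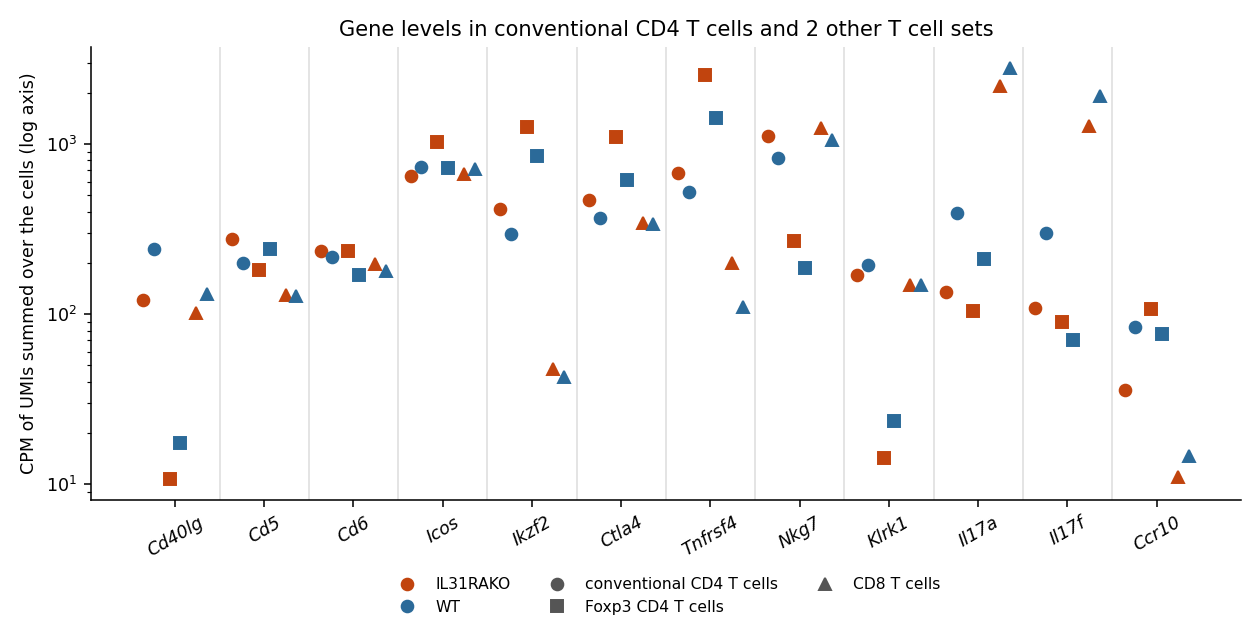
Summed levels (CPM) of selected genes in conventional CD4 T cells (circles), cells with Foxp3 RNA (squares) and CD8 T cells (triangles) on a log axis, with the IL31RAKO library left of the WT library. Cd40lg stood at 122 CPM in IL31RAKO and 241 CPM in WT conventional CD4 T cells, against 10.7 and 17.5 CPM in cells with Foxp3 RNA.

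Conventional CD4 T cells differed from cells with Foxp3 RNA in helper and regulatory genes, in each library on its own. Cd40lg was 11.3 times in IL31RAKO and 13.7 times in WT the level of the Foxp3 cells, which held only 3 Cd40lg UMIs in each library. Klrk1, an activating receptor, was 11.8 and 8.31 times as high, Nkg7, a granule protein, 4.17 and 4.42 times, and Cd7 4.24 and 3.93 times. Tnfsf8, the CD30 ligand, was 4.30 times as high in IL31RAKO. In WT the Foxp3 cells held none, and Tnfsf8 was 19.8 times as high with a floor of 3 UMIs over the group, the interval starting at 15.9. Below the Foxp3 cells were Il2ra, the interleukin-2 receptor alpha chain (0.271 in IL31RAKO and 0.308 in WT), Ikzf2 (0.326 and 0.346), Tnfrsf4 or OX40 (0.265 and 0.371), Tnfrsf18 or GITR (0.434 and 0.363) and Gzmb, granzyme B (0.315 and 0.430). As the absence of Foxp3 defined the members, these values describe the choice of cells and are no test.

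Against CD8 T cells, conventional CD4 T cells had less type 17 cytokine RNA. Il17a was 0.0614 times the CD8 level in IL31RAKO (135 against 2200 CPM) and 0.140 times in WT (390 against 2795 CPM). Il17f was 0.0852 times in IL31RAKO (108 against 1267 CPM) and 0.156 times in WT (299 against 1909 CPM). Higher than in CD8 cells were Ikzf2 (8.69 and 6.93 times), the quiescence factor Klf2 (4.56 and 4.73 times), Pglyrp1 (4.80 and 3.37 times), Tnfrsf4 (3.36 and 4.80 times), the skin-homing chemokine receptor Ccr10 (3.26 and 5.78 times) and Gzmb (2.98 and 5.28 times), IL31RAKO given before WT in each pair. Both sets were cut from the same libraries by marker UMIs, so these ratios too are descriptions.

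The receptor that the knockout removes could not be checked in these cells. Il31ra (13:112519898-112594360), Osmr and Il31 had 0 UMIs in the members of both libraries, which allows a share of up to 1.83% of IL31RAKO and 1.64% of WT members with a UMI. Over all filtered cells, Il31ra was listed with 26 UMIs in IL31RAKO and 11 in WT, Osmr with 73 in each, and Il31 with none. A tag at the 3′ end of a transcript can lie outside the deleted part, so these Il31ra UMIs do not check the genotype. Il6st, the gp130 chain that related cytokines share, held 27 UMIs in 23 IL31RAKO members and 12 UMIs in 12 WT members, a ratio of 2.81 [1.38, 6.10].

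The genotype comparison covered 1352 genes with 100 or more UMIs over both libraries, genes of the rule left out. The median log2 ratio was 0.02, and 38 genes stood at a ratio of 1.5 or more (2.81% of those measured) and 36 at 1/1.5 or less (2.66%). Genes are named below as the 12 highest and 12 lowest ratios among 839 eligible genes, where no cell held over 20% of the UMIs and the level exceeded free RNA in the higher library. A gene could pass the free RNA filter through the library where it was high alone. This was so for Ifitm1, Ltb4r1, Pglyrp1, Ifitm2, Cst7, Snx2, Gpr171 and Ap3s1, which lay below free RNA in WT. It was also so for Il17f, Hspa1a, Fosb, Snx20, Anapc11, Btg2, Dnajb1 and Egr1, which lay below it in IL31RAKO. Of these 24 genes, 20 kept their direction under all 16 alternative settings tried. A total of 7 stayed past 1.5-fold under all 16 (Tnfrsf9, Tnfrsf18, Prex1, Il17f, Hspa1a, Fosb and Tnfsf8). Settings that change only how many UMIs a gene needs to be measured cannot move a single gene's ratio. They are counted among the 16, here and below, and check nothing for single genes. These counts describe the settings and are no support, since the genes were chosen for their ratios.

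**Figure D2:**
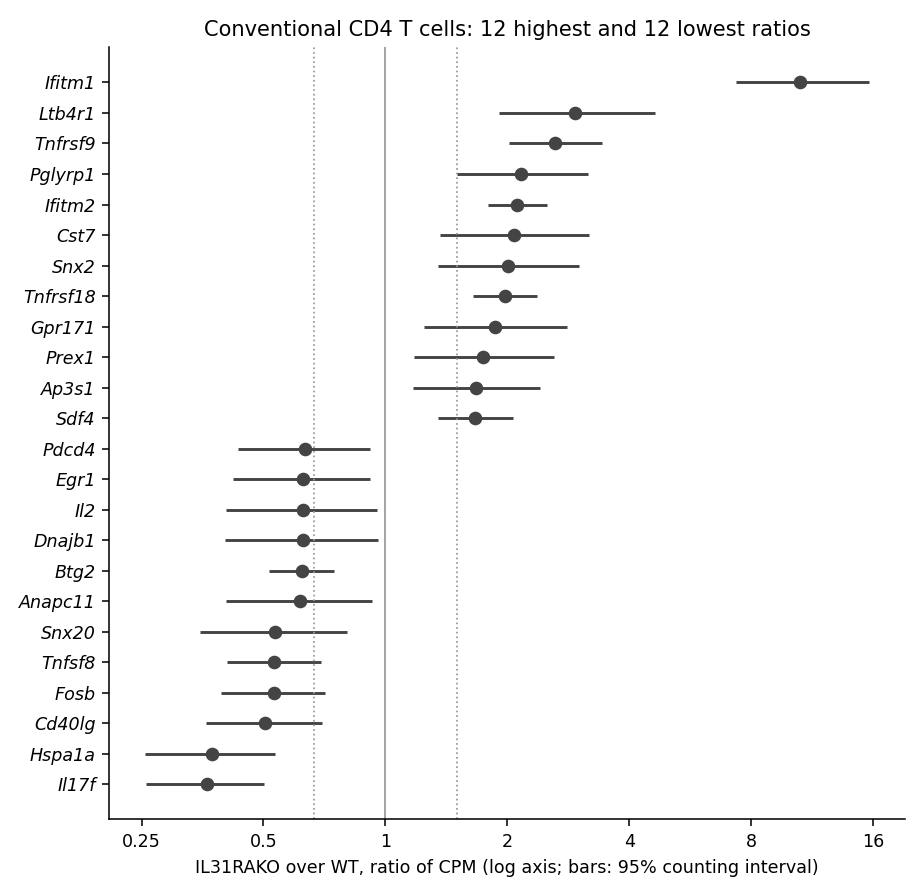
Ratios, IL31RAKO over WT on a log scale, of the named genes in conventional CD4 T cells, with exact 95% counting intervals and dotted lines at 1.5-fold. Ifitm1 stood highest at 10.5 and Il17f lowest at 0.362.

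The costimulatory receptors Tnfrsf9 and Tnfrsf18, of the tumour necrosis factor family, were past 1.5-fold higher in IL31RAKO cells, while the related Tnfrsf4 (1.28) and Cd27 (1.23 [0.864, 1.76]) were not. Tnfrsf9 (4-1BB, 4:150914562-150946102, plus strand) held 180 UMIs in 45 IL31RAKO cells and 86 UMIs in 29 WT cells, at 405 and 155 CPM, a ratio of 2.62 [2.01, 3.43]. Tnfrsf18 (GITR, 4:156026164-156028895, plus strand) held 318 UMIs in 112 IL31RAKO cells and 202 UMIs in 92 WT cells, at 715.5 and 363 CPM, a ratio of 1.97 [1.65, 2.36]. No cell held more than 19 UMIs of Tnfrsf9 or 13 of Tnfrsf18. Members with an Ikzf2 UMI held 133 of the 180 Tnfrsf9 UMIs in IL31RAKO, in 29 cells, and 60 of the 86 in WT, in 18 cells. Tnfrsf9 was also higher in IL31RAKO in cells with Foxp3 RNA (2.43), CD8 T cells (1.90) and CD4 cells with Ifng and Cxcr3 RNA (2.37). Tnfrsf18 was higher in the first 2 of these sets (1.65 and 1.46) and lower in the last (0.518). Tnfrsf9 and Tnfrsf18 are known to be high on regulatory T cells, and the regulatory T list was also higher, at 992 CPM in IL31RAKO and 741 in WT. Among members without an Ikzf2 UMI (108 in IL31RAKO and 133 in WT), Tnfrsf9 had a ratio of 2.65 and Tnfrsf18 of 2.29. Among those with one, the ratios were 1.85 and 1.32. Lack of an Ikzf2 UMI does not remove all cells with regulatory T markers. Ctla4 was still seen in 36.1% of IL31RAKO and 30.1% of WT members without one. The part of regulatory T cells in the Tnfrsf9 and Tnfrsf18 ratios was not tested.

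Of the other receptors on the costimulation list, Tnfrsf4 stood at 671 CPM in IL31RAKO and 525 in WT (1.28 [1.08, 1.51]), Cd28, the main costimulatory receptor, at 603 and 538 (1.12 [0.947, 1.33]), Cd2 at 918 and 777 (1.18 [1.03, 1.36]) and Icos at 648 and 728 (0.890 [0.762, 1.04]). Of 15 costimulation genes, 10 were measured, 2 were past 1.5-fold higher (Tnfrsf9 and Tnfrsf18) and 2 past it lower (Cd40lg and Tnfsf8), with a median log2 ratio of 0.20. Over all measured genes, 2.81% were past it higher and 2.66% lower. Of 17 regulatory T-associated genes, 6 were measured and all 6 lay above 1 (731 of all 1352 measured genes did), with 2 past 1.5-fold and a median of 0.42. Ikzf2 stood at 412 CPM in IL31RAKO and 295 in WT (1.40 [1.12, 1.73]) and Ctla4 at 1.29 [1.06, 1.57]. Of 14 inhibitory receptors, only Ctla4 and Cd5 were measured, with Cd5 at 1.39 [1.06, 1.81].

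The ligand genes Cd40lg and Tnfsf8 were lower in IL31RAKO cells. Cd40lg (X:57212143-57224042, plus strand) held 54 UMIs in IL31RAKO and 134 in WT, at 122 and 241 CPM, a ratio of 0.504 [0.361, 0.696]. The most UMIs in a cell were 4 in IL31RAKO and 8 in WT, and the ratio was 0.679 without members holding Ctla4, Ikzf2, Il2ra, Lrrc32 or Gpr83. That setting left 67 IL31RAKO and 84 WT members. A UMI of these genes was found in 59.1% of IL31RAKO and 54.1% of WT members. It was also found in 58.7% and 57.0% of CD8 T cells, and in 100% and 97.8% of cells with Foxp3 RNA. Here and below, leaving out such members is thus not specific to regulatory T cells. Free RNA held Cd40lg at 21.1 CPM in IL31RAKO and 16.99 in WT, well below the members. A Cd40lg UMI was found in 19.5% of IL31RAKO and 39.9% of WT members, and in 1.23% and 1.11% of Lyz2 and C1q cells, which should lack it. With each cell thinned to 1000 UMIs (150 IL31RAKO and 167 WT members, 14 and 16 shallower ones left out), the shares were 10.0% [5.71, 15.96] and 17.4% [11.9, 24.0].

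Tnfsf8 held 82 UMIs in 25 IL31RAKO cells and 193 UMIs in 59 WT cells, a ratio of 0.531 [0.405, 0.692], with up to 12 UMIs in an IL31RAKO cell and 33 in a WT cell. Il2, the growth factor that activated helpers make, held 35 UMIs in 32 IL31RAKO cells and 70 UMIs in 48 WT cells, a ratio of 0.625 [0.404, 0.951] that stayed past 1.5-fold under 12 of 16 alternative settings. Below the limit of 100 UMIs stood Tnfsf11 (RANK ligand) with 16 UMIs in IL31RAKO and 61 in WT, Lta (lymphotoxin alpha) with 4 and 22, and Tnfsf14 (LIGHT) with 2 and 13. Ltb, lymphotoxin beta, was measured at a ratio of 0.779. Of 31 secreted factors, 12 were measured, 5 of them past 1.5-fold lower (2.66% of all measured genes were) and 0 higher (2.81% of all were), with a median log2 ratio of −0.46. The 5 lower ones were Il22, Il17a, Il17f, Tnfsf8 and Il2.

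**Figure D3:**
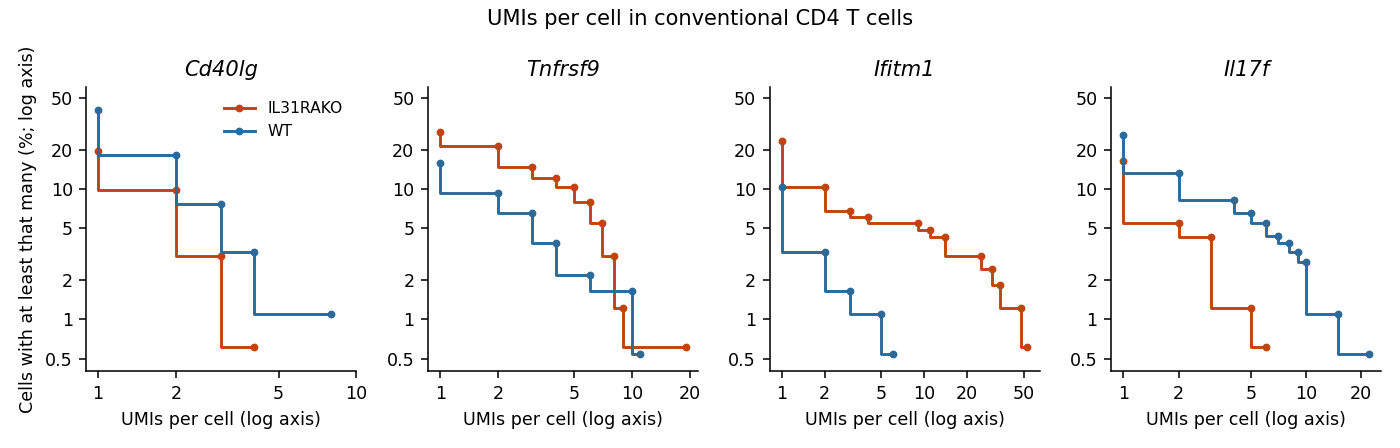
UMIs per cell of selected genes in IL31RAKO and WT conventional CD4 T cells, as the percent of cells with at least a given number of UMIs, both axes on a log scale. For Cd40lg, 16 IL31RAKO and 33 WT cells held 2 or more UMIs, and for Ifitm1, 17 and 6.

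Type 17 cytokine RNA was lower in IL31RAKO cells and concentrated in few cells. The promoters of Il17a and Il17f are shown because both genes moved the same way, with capitals marking AGGTCA, the core element bound by the ROR family of nuclear receptors. They are the 150 bases before the RefSeq start, in GRCm38.p6, read on the gene's strand, Il17a at chr1:20730755-20730904 (plus) and Il17f at chr1:20784271-20784420 (minus). The Il17f window lies inside the longer span that GENCODE gives the gene.
Il17a: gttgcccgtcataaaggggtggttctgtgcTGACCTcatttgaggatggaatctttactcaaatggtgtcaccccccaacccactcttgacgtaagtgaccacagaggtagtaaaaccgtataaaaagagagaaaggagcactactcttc
Il17f: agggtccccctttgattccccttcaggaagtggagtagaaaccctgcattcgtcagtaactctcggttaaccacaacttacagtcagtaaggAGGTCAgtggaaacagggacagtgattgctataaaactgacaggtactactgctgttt
AGGTCA was searched on both strands; the match begins 120 bases before the start in Il17a, on the opposite strand and so shown as TGACCT, and 58 bases before it in Il17f. It was found in 8.58% of 32851 promoter windows of this length, and a match is a description of letters only.

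Il17f held 48 UMIs in 27 IL31RAKO cells and 166 UMIs in 47 WT cells, at 108 and 299 CPM, a ratio of 0.362 [0.257, 0.501]. Il17a held 60 UMIs in 30 IL31RAKO cells and 217 UMIs in 63 WT cells, at 135 and 390 CPM, a ratio of 0.346 [0.255, 0.462]. Both libraries' free RNA held more Il17a than the members did, at 537 CPM in IL31RAKO and 624 in WT, so Il17a is outside the named genes. Free RNA held Il17f at 305 CPM in IL31RAKO and 195 in WT, above the members in IL31RAKO and below them in WT. Il22, an epidermal cytokine, held 53 UMIs in 12 IL31RAKO cells and 326 UMIs in 30 WT cells, of which 128 lay in a single WT cell, a ratio of 0.203 [0.149, 0.273].

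An Il17a UMI was found in 18.3% of IL31RAKO and 34.4% of WT members, against 20.2% and 22.8% of Lyz2 and C1q cells, whose median depths were 3868 and 2887 UMIs. Thinned to 1000 UMIs, the shares were 10.0% in IL31RAKO and 12.6% in WT members, against 5.07% and 7.27% of Lyz2 and C1q cells. Il17f was found in 16.5% of IL31RAKO and 25.7% of WT members before thinning. It was found in 7.33% [3.72, 12.7] of thinned IL31RAKO and 14.4% [9.43, 20.6] of thinned WT members, against 1.51% and 5.35% of Lyz2 and C1q cells. Il22 was found in 7.32% of IL31RAKO and 16.4% of WT members, or 3.33% and 11.4% thinned, against 1.16% and 2.29% of thinned Lyz2 and C1q cells. Without members holding Ctla4, Ikzf2, Il2ra, Lrrc32 or Gpr83, the level ratio was 0.725 for Il17a and 0.683 for Il22, short of 1.5-fold, while Il17f stayed past it. These ratios rest on the 67 IL31RAKO and 84 WT members left.

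**Figure D4:**
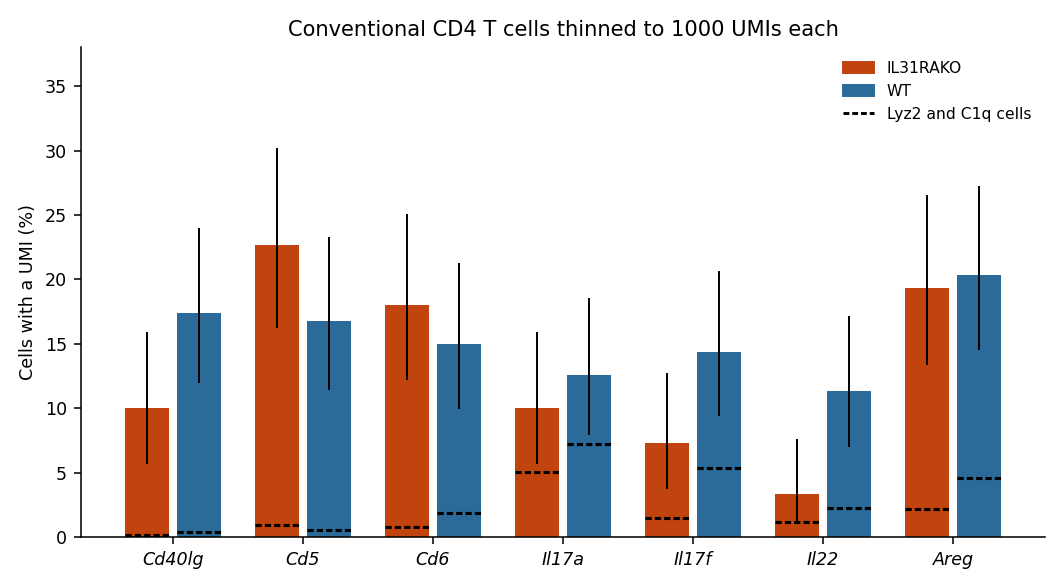
Percent of conventional CD4 T cells with a UMI of each gene after thinning to 1000 UMIs per cell, IL31RAKO left of WT, with exact binomial 95% intervals and dashes for Lyz2 and C1q cells. For Il17f the shares were 7.33% in IL31RAKO and 14.4% in WT, and for Areg 19.3% and 20.4%.

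Cells with 2 or more UMIs of Il17a and Il17f together numbered 20 (12.2%) in IL31RAKO and 39 (21.3%) in WT. Il22 lay mainly in the same cells, at 58.7 times the level of cells with neither these cytokines, Il4 or Il5, nor recirculation genes in IL31RAKO and 71.6 times in WT. These cells also held more Ramp1, part of the receptor for the neuropeptide CGRP (7.29 times in IL31RAKO and 4.92 in WT), Tnfsf8 (6.32 and 3.73 times) and Tmem176a (3.74 and 4.42 times). Nkg7 (0.475 in IL31RAKO and 0.498 in WT) and the chemokine Ccl5 (0.133 and 0.0446) were lower there. Il17a and Il17f chose the cells, and the other genes are described without a test.

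Of 16 type 17 genes, 10 were measured, with 2 past 1.5-fold higher, 3 lower (the cytokines) and a median log2 ratio of −0.23. Over all measured genes, 2.81% were past it higher and 2.66% lower. Rora, a nuclear receptor of the ROR family, stood at 1.26 [1.01, 1.57] and the transcription factor Maf at 1.04 [0.815, 1.32]. The membrane proteins Tmem176a (0.713 [0.523, 0.967]) and Tmem176b (0.721 [0.544, 0.951]) lay below 1 but within 1.5-fold, and below free RNA in both libraries. Higher were Ltb4r1, the leukotriene B4 receptor, with 73 UMIs in 43 IL31RAKO cells and 31 UMIs in 27 WT cells (2.95 [1.91, 4.64]), and the cytokine signalling factor Stat3 at 1.51, which stayed past 1.5-fold under 6 of 16 alternative settings. Without members holding Ctla4, Ikzf2, Il2ra, Lrrc32 or Gpr83 the Ltb4r1 ratio was 1.01. The chemokine receptor Ccr6 held 42 UMIs in IL31RAKO and 49 in WT.

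Type 2 cytokine RNA was near the limit of detection. Il4 held 13 UMIs in 5 IL31RAKO cells, 9 of them in a single cell, and 7 UMIs in 7 WT cells, and Il5 held 0 and 1. Cells with Il4 or Il5 numbered 5 (3.05%) in IL31RAKO and 8 (4.37%) in WT. The regulator Gata3 stood at 178 CPM in IL31RAKO and 169 in WT (1.05 [0.769, 1.43]). Areg, the epidermal growth factor relative amphiregulin, stood at 437 CPM in IL31RAKO and 500 in WT (0.873 [0.723, 1.05]), close to free RNA at 437 and 319. Of 17 type 2 genes, 3 were measured and 0 lay past 1.5-fold in either direction. Below the limit for measured genes, Il1rl1, the interleukin-33 receptor, held 32 UMIs in IL31RAKO and 12 in WT (3.34 [1.67, 7.11]) and Il4ra, the interleukin-4 receptor chain, 25 and 15 (2.08 [1.06, 4.25]). Il13 was part of the rule, which removes cells with 2 or more of its UMIs, and 9 IL31RAKO and 7 WT members held 1.

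Genes of the interferon-induced transmembrane family were higher in IL31RAKO cells. Ifitm1 (7:140967221-140969825, plus strand) held 278 UMIs in 38 IL31RAKO cells and 33 UMIs in 19 WT cells, at 626 and 59.4 CPM, a ratio of 10.5 [7.33, 15.6]. In IL31RAKO, 5 cells held 190 of these UMIs (68.3%) and the highest cell 53. Ifitm2 held 381 UMIs in 82 IL31RAKO cells and 225 UMIs in 67 WT cells, a ratio of 2.12 [1.79, 2.51], or 1.03 in members with at most 1 Lyz2 UMI. Ifitm3 held 148 and 60 UMIs, a ratio of 3.09 [2.27, 4.24], but lay below free RNA in both libraries. Free RNA held Ifitm1 at 547 CPM in IL31RAKO and 480 in WT, and Ifitm2 at 811 and 773, near the IL31RAKO members and above the WT members.

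Ifitm1 was higher in IL31RAKO in each comparison set as well, at 5.07 [2.31, 13.2] in cells with Foxp3 RNA, 3.83 [3.39, 4.34] in CD8 T cells, 18.1 [9.91, 36.9] in CD4 cells with 2 or more UMIs of Ifng and Cxcr3 and 3.13 in Lyz2 and C1q cells. Within the members, 257 of the 278 IL31RAKO UMIs lay in the 67 cells with Klrk1, Klrd1 or Cd7 RNA and no Ikzf2, and 20 of the 33 WT UMIs in 88 such cells. Without all cells that held Klrk1, Klrd1 or Cd7, the ratio was 1.29. Of 22 interferon-response genes, 5 were measured and 3 were past 1.5-fold higher (2.81% of all measured genes were), all 3 of the Ifitm family. Outside that family, Bst2 stood at 1.40 [0.969, 2.03] and Ifi203 at 0.958, and Isg15 held 26 UMIs in IL31RAKO and 16 in WT.

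Some cytotoxic genes were higher in IL31RAKO cells. Gzmb held 257 UMIs in 58 IL31RAKO cells and 197 UMIs in 44 WT cells, a ratio of 1.63 [1.35, 1.97]. Nkg7 stood at 1118 CPM in IL31RAKO and 827 in WT (1.35 [1.19, 1.54]), and Cst7, an inhibitor of granule proteases, held 63 and 38 UMIs (2.07 [1.37, 3.19]). Pglyrp1, a peptidoglycan recognition protein, stood at 187 CPM in IL31RAKO and 86.3 in WT, a ratio of 2.16 [1.498, 3.15], but one of 0.940 without members holding Ctla4, Ikzf2, Il2ra, Lrrc32 or Gpr83. Gzmb had a ratio of 1.16 without members holding Klrk1, Klrd1 or Cd7, and 3.33 [2.41, 4.66] without those holding Ikzf2. Of 16 type 1 and cytotoxic genes, 6 were measured, with 1 past 1.5-fold higher and 0 lower, against 2.81% and 2.66% of all measured genes. Gzma held 2 UMIs in each library.

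Immediate early and stress genes, which cells switch on within minutes of activation or of tissue handling, were lower in part. Of 19 list members, 17 were measured, 14 lay below 1 (621 of all 1352 measured genes did) and 6 were past 1.5-fold lower (2.66% of all were), with 0 higher and a median log2 ratio of −0.43. Fosb, a subunit of the AP-1 factor, held 67 UMIs in 43 IL31RAKO cells and 158 UMIs in 64 WT cells, a ratio of 0.530 [0.393, 0.710]. Jun, another subunit, held 92 UMIs in IL31RAKO and 192 in WT (0.599 [0.462, 0.772]), the related Atf3 29 and 73 (0.497 [0.312, 0.774]) and the mitochondrial chaperone Hspe1 70 and 148 (0.592 [0.439, 0.791]). Jun, Atf3 and Hspe1 lay below free RNA in both libraries, with Jun at 207 CPM in IL31RAKO and 345 in WT members against 426 and 493 in free RNA. Outside the list, Egr1, an early growth response factor, held 42 UMIs in IL31RAKO and 84 in WT (0.625 [0.421, 0.916]). Btg2, an antiproliferative gene also outside it, stood at 398 CPM in IL31RAKO and 640 in WT, a ratio of 0.622 [0.516, 0.747]. In IL31RAKO, Fosb (151 against 195 CPM), Egr1 (94.5 against 132) and Btg2 (398 against 516) lay below free RNA, and in WT above it. Of the list members short of 1.5-fold, Fos stood at 0.728, Junb at 0.772 and Jund at 1.19.

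Hspa1a, the inducible heat shock protein of the Hsp70 family, had the lowest ratio of the measured genes on this list. Its promoter (chr17:34972157-34972306, minus strand, 150 bases before the RefSeq start in GRCm38.p6) is shown with the heat shock element GAANNTTC in capitals, which begins 104 bases before the start and is found in 3.95% of promoter windows of this length, both strands searched.
Hspa1a: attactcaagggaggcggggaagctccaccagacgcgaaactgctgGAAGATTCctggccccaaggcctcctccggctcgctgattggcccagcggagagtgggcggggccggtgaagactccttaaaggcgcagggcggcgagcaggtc
The gene held 40 UMIs in 19 IL31RAKO cells and 134 UMIs in 40 WT cells, at 90.0 and 241 CPM, a ratio of 0.373 [0.255, 0.535]. Its reads are hard to separate from those of the near-identical copy Hspa1b, so the count is uncertain. Hspa1a was lower in IL31RAKO in the comparison sets too, at 0.153 in cells with Foxp3 RNA, 0.299 in CD8 T cells, 0.0565 in the CD4 cells with Ifng and Cxcr3 RNA and 0.627 in Lyz2 and C1q cells. In free RNA it ran the other way, at 221 CPM in IL31RAKO and 119 in WT. Dnajb1, a partner of Hsp70, held 34 UMIs in IL31RAKO and 68 in WT (0.625 [0.402, 0.957]), while the constitutive Hspa8 stood at 0.853. The part of dissociation in these genes was not tested.

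**Figure D5:**
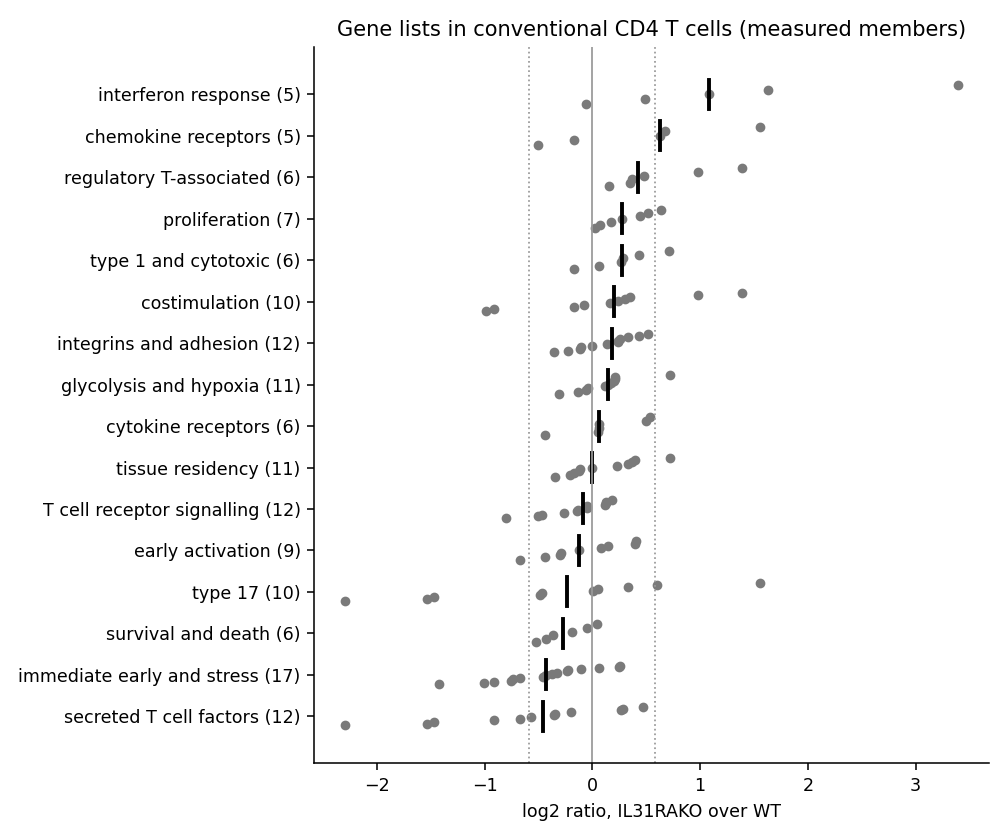
Log2 ratios, IL31RAKO over WT, of each measured member (points) of the lists with 5 or more measured members in conventional CD4 T cells, with list medians as bars and 1.5-fold as dotted lines. The interferon-response list has the highest median log2 ratio shown at 1.08 and the secreted factors the lowest at −0.46.

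Genes of recirculation and residency differed little. Il7r, the interleukin-7 receptor, stood at 376 CPM in IL31RAKO and 266 in WT (1.41 [1.12, 1.77]), Klf2 at 342 and 315 (1.09 [0.868, 1.36]) and the gut-homing integrin chain Itgb7 at 464 and 389 (1.19 [0.981, 1.45]). Of 16 residency genes, 11 were measured, with 1 past 1.5-fold higher (Hif1a, the oxygen sensor subunit), against 2.81% of all measured genes, and a median log2 ratio of −0.01. Among them Cd69, an activation and retention marker, stood at 1.32 [1.08, 1.598], the chemokine receptor Cxcr6 at 0.888 and the integrin chain Itgae at 0.925.

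Chemokine receptors were mostly too sparse to compare. Of 19 genes on the chemokine receptor list, 5 were measured and 3 were past 1.5-fold higher (2.81% of all measured genes were, and 2.66% were past it lower). Only 1 of these 3 is a chemokine receptor, the monocyte and memory T cell receptor Ccr2. Ccr2 held 192 UMIs in IL31RAKO and 156 in WT (1.54, past 1.5-fold under 12 of 16 alternative settings). The others, the leukotriene receptor Ltb4r1 and the oxysterol receptor Gpr183 (124 and 97 UMIs, 1.599), are not chemokine receptors. Gpr183 turned to 0.643 without members holding Klrk1, Klrd1 or Cd7. Ccr10 held 16 UMIs in IL31RAKO and 47 in WT, a ratio of 0.426 [0.225, 0.765] under the limit for measured genes, and Ccr4 held 18 and 15. Of 18 antigen receptor signalling genes, 12 were measured and 1 was past 1.5-fold, the phosphatase Ptpn6 at 0.575 [0.371, 0.874]. The kinases Lck (1.10) and Zap70 (0.834) were not. The integrin, survival, cytokine receptor and neuropeptide receptor lists had no member past 1.5-fold among 12, 6, 6 and 2 measured. The glycolysis list had 1 of 11 (Hif1a, 1.64 [1.22, 2.22]), the proliferation list 1 of 7 (Stmn1, 1.55 [1.196, 2.02]) and the early activation list 1 of 9 (Egr1). Stmn1, a microtubule regulator, had 20.9% of its IL31RAKO UMIs in a single cell and lay below free RNA (302 against 332 CPM in IL31RAKO), was past 1.5-fold under 9 of 16 alternative settings and stood at 0.899 without members holding Ikzf2.

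The 24 named genes also held genes outside these lists. Higher were the sorting protein Snx2 (2.01 [1.35, 3.01]), the orphan receptor Gpr171 (1.86 [1.25, 2.81]), the exchange factor Prex1 (1.74 [1.17, 2.60]), Ap3s1 of the AP-3 adaptor (1.68 [1.17, 2.41]) and the calcium-binding Sdf4 (1.67 [1.35, 2.06]). Lower were Snx20, another sorting protein (0.534 [0.349, 0.802]), Anapc11, a subunit of the anaphase-promoting complex (0.617 [0.405, 0.927]), and Pdcd4, an inhibitor of translation (0.632 [0.432, 0.915]). The directions of the 24, with Il17a, Il22 and Ifitm3 added, were compared in the other T cell sets. The direction was the same for 21 of 27 genes in CD8 T cells and 16 of 26 in cells with Foxp3 RNA. In the CD4 cells with Ifng and Cxcr3 RNA it was the same for 16 of 24. No such share was taken over all measured genes, so these counts have no background to be read against. These sets come from the same 2 libraries, so their directions are not independent of each other.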

How the data were processed

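Counts were the deposited raw UMI counts per gene and barcode of 2 libraries, with 737280 barcodes and 27998 genes listed in each, empty droplets included, and no normalisation seen in the values. Per the labels' protocols, 30000 cells were loaded per library on version 2 of the 10x 3′ kit and read with 26 and 98 cycles. The submitters' processing notes name Cell Ranger 3.1, Seurat 3.2.2 and mm10, with no role for each. The count per library was 71333292 in IL31RAKO and 57000499 in WT.

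From these, cells were filtered and members chosen by UMIs as the report gives. UMIs were summed per library and scaled to CPM. Ratios have exact conditional binomial intervals and shares exact Clopper-Pearson ones, and a count of 0 was given a floor of 3. With 1 library per group there was no test. Free RNA was read from barcodes of 10 to 50 UMIs. Comparison sets were Foxp3 CD4 T cells, CD8 T cells (2 or more Cd8 UMIs), CD4 cells with 2 or more UMIs of Ifng and Cxcr3, and cells with 10 or more Lyz2 and 2 or more C1q UMIs. Doublets were kept, and their removal was tried as an alternative (Scrublet in scanpy 1.11.5, expected rate 8%). The cells with the highest scores were called, as many as 0.8% per 1000 filtered cells of the library.

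Named genes were the 12 highest and 12 lowest ratios among measured genes (100 or more UMIs), leaving out rule genes, mitochondrial, ribosomal and like genes, genes with over 20% of UMIs in 1 cell, and genes below free RNA in the higher library. The 10 highest and 10 lowest against CD8 and Foxp3 cells, the members of 21 gene lists and of 17 marker lists, and the receptor genes were added, and not each of them is printed. The members and lists were chosen with earlier results of these data known. Gene positions are from GENCODE on mm10 and promoters from RefSeq on GRCm38.p6. Trac, Trbc1, Trbc2 and Trdc were not analysed here. A few list members are not reported here. Python 3.11.15, numpy 2.4.6, scipy 1.17.1 and pandas 2.3.3 were used. In a simulation over 1332 genes of the genotype comparison, 95.4% of intervals held the true ratio, 100% of genes made 2-fold higher and 98.8% of those made 2-fold lower passed 1.5-fold, as did 1.74% of unchanged genes. The simulated counts had only the counting error that the intervals assume, without UMIs clumped in single cells or variation between mice. These percentages therefore check the calculation and are no error rates for the real counts.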

Additional observations from a re-analysis of the deposited data

Results flagged for a closer look

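A total of 7 genes stood past 1.5-fold in opposite directions in conventional CD4 T cells and in another CD4 set of the same libraries. None of these differences was tested, and the intervals of Pglyrp1, Cst7, Anapc11 and Pdcd4 in the other set span 1. In each case the other set rests on few UMIs, with 91 IL31RAKO and 45 WT cells holding Foxp3 RNA and 32 IL31RAKO and 40 WT cells holding 2 or more UMIs of Ifng and Cxcr3.

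In the Ifng and Cxcr3 cells, 3 genes that were higher in IL31RAKO conventional CD4 T cells were lower in IL31RAKO. Tnfrsf18 (GITR) had a ratio of 0.518 [0.310, 0.847] there (26 UMIs in IL31RAKO and 51 in WT), against 1.97 in conventional cells. Pglyrp1 had a ratio of 0.469 [0.146, 1.32] (6 and 13 UMIs), against 2.16, and Cst7 of 0.642 [0.284, 1.39] (12 and 19 UMIs), against 2.07. The anaphase-promoting complex subunit Anapc11 ran the other way, at 1.85 [0.844, 4.27] (20 and 11 UMIs) against 0.617.

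In the cells with Foxp3 RNA, 3 genes that were lower in IL31RAKO conventional CD4 T cells were higher in IL31RAKO. The early growth response gene Egr1 had a ratio of 2.85 [1.16, 8.43] there (28 UMIs in IL31RAKO and 6 in WT), against 0.625 in conventional cells, and Pdcd4 of 1.71 [0.9302, 3.32] (42 and 15 UMIs), against 0.632. Tnfsf8 held 12 UMIs in IL31RAKO and 0 in WT Foxp3 cells. With a floor of 3 UMIs over the group the ratio was 2.45, the interval starting at 1.70, against 0.531 in conventional cells.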

How the results depend on the processing

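No paired analysis was possible because each group had 1 library, so there was also no replicate to leave out and no replicate block to fit. Of the alternatives to single genes, 603 left the ratio about as it was, 62 moved it and 7 reversed it. For list medians the numbers were 229, 25 and 2. The 603 include the settings that change only how many UMIs a gene needs to be measured. Those settings cannot move a single gene's ratio, so the 603 overstate how stable single genes were. Where a value moved, the cause was not tested, except that stricter rules hold fewer cells and genes. Libraries cannot be told apart from genotype, and the depth limited the comparison to genes of 100 or more UMIs.

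The numbers of genes past 1.5-fold, 38 higher and 36 lower, were 16 and 11 with 2 or more Cd4 UMIs, 24 and 22 with at most 1 Lyz2 UMI, 145 and 129 at 50 or more UMIs, 15 and 16 at 200 or more, and 3155 and 2664 at 1 or more. With free RNA subtracted they were 44 and 76. Alternatives added after seeing the data gave 17 and 25 without cells holding Ctla4, Ikzf2, Il2ra, Lrrc32 or Gpr83, 23 and 39 without cells holding Ikzf2, and 23 and 16 without cells holding Klrk1, Klrd1 or Cd7. The ratio of the share of cells was 0.970 among CD3 cells. The ratio for S1pr1-holding cells was 6.68 when thinned to 1000 UMIs, 0.187 at 2000 and 0.744 without thinning, and is not interpreted.

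Median log2 ratios of lists moved as follows. With 2 or more Cd4 UMIs (33 IL31RAKO and 42 WT cells), type 17 stood at −2.08, residency at −0.42, immediate early and stress at −0.092, proliferation at −0.11, secreted factors at −1.15 and chemokine receptors at −0.60, a reversal. With at most 1 Lyz2 UMI, residency stood at −0.34, interferon response at 1.37 and chemokine receptors at −0.063, a reversal. At 50 or more UMIs, interferon response stood at 0.46 and chemokine receptors at 0.10. At 200 or more, type 17 stood at −0.97 and interferon response at 1.63. At 1 or more, interferon response stood at 0.64 and chemokine receptors at 0.10. Without cells holding Ctla4 or the other genes of that set, type 1 and cytotoxic genes stood at 0.72, immediate early and stress at −0.68, interferon response at 2.68, proliferation at −0.28 and chemokine receptors at 0.21. Without Ikzf2-holding cells, interferon response stood at 1.87, proliferation at −0.15 and secreted factors at −0.97. Without Klrk1-, Klrd1- or Cd7-holding cells, type 17 stood at −0.96, interferon response at 0.71, proliferation at −0.067 and chemokine receptors at 0.11.

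Single genes reversed as follows on the log2 scale. With 2 or more Cd4 UMIs, Snx20 stood at 0.020 and Pdcd4 at 0.0025. Gpr183 stood at −0.063 with at most 1 Lyz2 UMI and at −0.64 without Klrk1-, Klrd1- or Cd7-holding cells, where Gpr171 stood at −0.048. Pglyrp1 stood at −0.089 without cells holding Ctla4 or the other genes of that set, where Ltb4r1 had a ratio of 1.01. Stmn1 stood at −0.15 without Ikzf2-holding cells.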

Other observations

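Splitting the members by Ikzf2, a split chosen after the data were seen, set apart genes whose sum over all members hid opposite directions. Areg was at 1044 CPM in IL31RAKO and 671 in WT among members with an Ikzf2 UMI (157 and 84 UMIs), a ratio of 1.56 [1.19, 2.05]. Among members without it, Areg was at 126 CPM in IL31RAKO and 450 in WT (37 and 194 UMIs), a ratio of 0.279 [0.191, 0.399], and a single WT member held 76 Areg UMIs. Gzmb ran the other way, at 0.774 with Ikzf2 (132 UMIs in IL31RAKO and 142 in WT) and 3.33 without it (125 and 55 UMIs). Cd40lg lay almost wholly in members without Ikzf2, with 50 of 54 UMIs in IL31RAKO and 126 of 134 in WT, where its ratio was 0.581. Tnfrsf4 was at 1516 CPM in IL31RAKO and 1477 in WT with Ikzf2, and at 238 and 248 without it. These differences between the splits were not tested.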
